A study of Mus musculus with 18 samples.

Results

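The genes described here are the semaphorins and their receptors, the plexins and neuropilins, in a mouse embryonic stem cell line on its way to heart muscle. They were taken from the count table by symbol alone (Sema with a number and a letter, Plxn with a letter and a number, Nrp1 and Nrp2), which gave 31 of 23337 gene symbols. Of these, 20 were ligands: 7 of semaphorin class 3, 6 of class 4, 2 of class 5, 4 of class 6 and 1 of class 7. The 11 receptors were 4 plexins of type A, 3 of type B, 1 of type C, 1 of type D and the 2 neuropilins.

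The cells were of the TBX5-FTA line, made on the A2Lox.cre stem cell background, and every group was untreated. Poly(A) RNA was harvested at days 5, 6 and 7 of differentiation (D5, D6 and D7), labelled cardiac progenitor cells, and at days 8, 10 and 15 (D8, D10 and D15), labelled immature cardiomyocytes, with 3 libraries a day and 18 in all. The labels name 1 line and leave unsaid whether the 3 libraries of a day are separate cultures. P-values therefore measure the spread between these libraries, which may be technical. The study concerns Hedgehog signalling and the timing of differentiation, but no perturbed samples were analysed here, so the comparisons below are of days. Libraries held 5257601 to 7122093 counts. Below, values listed for the 3 libraries of a day stand in the order a, b, c of the table's columns, which only names them. The summed cardiomyocyte markers described at the end were nonetheless highest in library a and lowest in library c on 6 of 6 days, and the labels do not say whether libraries of the same letter belong together.

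Semaphorins are secreted or membrane-bound guidance proteins, first known from growing axons and later from blood vessels, bone, immune cells and the developing heart. Class 3 semaphorins are secreted and mostly bind a neuropilin, which holds the ligand, while a plexin of type A or D carries the signal across the membrane. Classes 4 to 6 are membrane proteins that bind plexins directly, and class 7 is anchored to the membrane by a lipid. Plexins act through a GTPase-activating domain on small GTPases and so on adhesion and the cytoskeleton. In mice, loss of Sema3c or of Plxnd1 disturbs the outflow tract of the heart, Sema3a shapes its nerve supply, Sema3d bears on the joining of the pulmonary veins, and in chick embryos Sema6D acts in the shaping of the heart tube.

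Start-site sequences are shown for the genes with the largest later gains among those with an entry, 3 ligands and 1 receptor, because these gains carry most of what follows. Each is the RefSeq window of 300 bases on GRCm38.p6, 250 before and 50 after the annotated start, written 5′ to 3′ on the gene's own strand. The windows are chr2:124089719-124090018 (plus strand) for Sema6d, chr5:13396534-13396833 (plus) for Sema3a, chr5:12382916-12383215 (plus) for Sema3d and chr10:94944796-94945095 (minus) for Plxnc1. The Sema3a window lies inside the GENCODE gene model, downstream of its outermost start. Capitals mark matches, on either strand, to a T-box motif (AGGTGT) or an E-box of the Snail and Twist type (CACCTG), which overlap each other in the Sema3d window.
Sema6d: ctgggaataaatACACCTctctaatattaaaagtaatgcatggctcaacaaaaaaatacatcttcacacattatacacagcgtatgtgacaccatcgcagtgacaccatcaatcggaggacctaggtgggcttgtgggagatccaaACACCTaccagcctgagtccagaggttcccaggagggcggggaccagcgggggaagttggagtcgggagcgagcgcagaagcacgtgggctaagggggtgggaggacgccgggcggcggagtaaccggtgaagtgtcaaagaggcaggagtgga
Sema3a: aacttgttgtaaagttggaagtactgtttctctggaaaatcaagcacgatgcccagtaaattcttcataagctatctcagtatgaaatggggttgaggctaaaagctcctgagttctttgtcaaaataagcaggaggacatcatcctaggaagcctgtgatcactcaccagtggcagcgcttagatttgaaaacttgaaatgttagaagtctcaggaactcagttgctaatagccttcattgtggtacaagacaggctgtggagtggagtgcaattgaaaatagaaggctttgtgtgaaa
Sema3d: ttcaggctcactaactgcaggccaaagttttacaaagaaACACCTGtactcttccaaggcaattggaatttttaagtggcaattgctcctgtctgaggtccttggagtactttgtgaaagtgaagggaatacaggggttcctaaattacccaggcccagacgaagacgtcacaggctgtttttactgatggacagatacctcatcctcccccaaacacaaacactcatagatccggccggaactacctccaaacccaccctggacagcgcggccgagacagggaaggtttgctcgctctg
Plxnc1: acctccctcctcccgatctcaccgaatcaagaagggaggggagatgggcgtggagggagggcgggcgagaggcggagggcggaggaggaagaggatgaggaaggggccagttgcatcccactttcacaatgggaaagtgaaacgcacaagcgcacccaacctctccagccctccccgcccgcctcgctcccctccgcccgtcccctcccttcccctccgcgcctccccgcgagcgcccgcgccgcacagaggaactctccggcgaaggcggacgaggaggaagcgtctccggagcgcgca

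Windows were found for 26 of the 31 genes, with none for Plxna1, Plxna4, Sema3b, Sema3f and Sema6a. For a gene with several windows, such as Sema4a with 4, the window nearest its annotated start was used. The set of all windows was not narrowed in this way, so its shares and median below rest on an unlike choice of windows. The T-box letters occurred in 5 of the 26 windows, those of Sema3d, Sema3g, Sema4a, Sema4f and Sema6d, which is 19.2%, against 13.7% of all 32841 windows of that length. The E-box letters occurred in 3 windows (Sema3d, Sema4c and Sema4f), or 11.5%, against 20.2% of all windows. The letters of a GATA motif (AGATAA), of a MEF2 motif (TATTTTTA) and of a GLI motif (GGGTGGTC) occurred in 0 of the 26 windows, against 11.2%, 2.72% and 0.807% of all windows. The ratio of observed to expected CpG pairs had a median of 0.674 in the 26 windows and 0.384 in all windows. Among the windows printed it was 0.659 for Sema6d, 0.162 for Sema3a, 0.436 for Sema3d and 0.843 for Plxnc1. A letter match is a description of the window and not a binding site.

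Of the 31 genes, 28 had enough counts to be tested, 18 ligands and 10 receptors. Tests were edgeR quasi-likelihood tests fitted on all 18 libraries, with p-values adjusted by Benjamini-Hochberg over 13116 genes, and a gene was called at an adjusted p under 0.05. Levels are given as CPM, the read count divided by the scaled library total, and a level compared between genes is given per kilobase of exon. All 28 were called across the 6 days, where 88.9% of all genes tested were called. For D15 against D5, 24 of the 28 were called, and 78% of all genes were. The ligands were mostly higher: 14 rose, 2 fell and 2 were not called, where 40.3% of all genes rose and 37.7% fell. The receptors went both ways, with 4 higher, 4 lower and 2 not called. The median log2 fold change was 1.33 over the 18 ligands, 0.02 over the 10 receptors and 0.03 over all genes tested. Libraries of D15 and D5 did not overlap for 25 of the 28 genes, where 80% of all genes tested had no overlap.

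**Figure D1:**
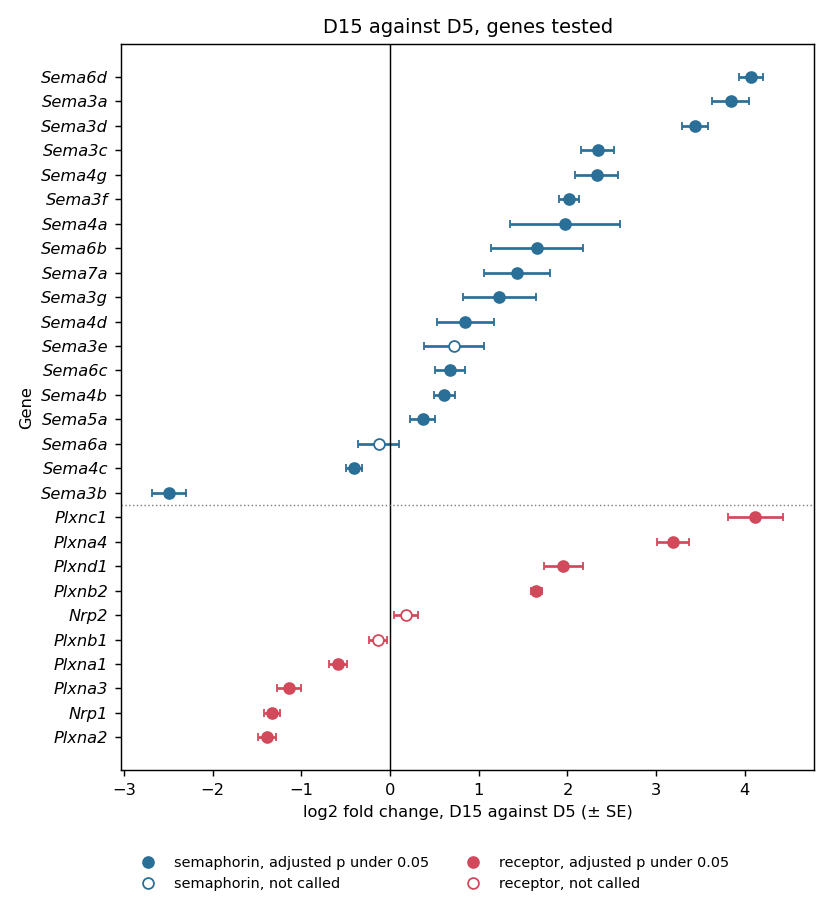
Log2 fold change of each tested gene, D15 against D5 (x axis, bars are ± SE, 3 libraries a day), with semaphorins above the dotted line and receptors below it; open points were not called. Sema6d (4.07), Sema3a (3.84) and Plxnc1 (4.12) lie farthest to the right, and Sema3b (-2.49) farthest to the left.

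Summed per kilobase over all 20 ligands, the level had means of 63.2, 57.2, 69.5, 85.2, 98.6 and 139 CPM per kb at D5, D6, D7, D8, D10 and D15. Over all 11 receptors the sums were 256, 380, 406, 396, 328 and 289 CPM per kb at the same days. The ligand sum thus stood highest at D15, where its libraries ran from 133 to 143, and the receptor sum at D7, where they ran from 375 to 440. Libraries of D6, D7 and D8 overlapped in the receptor sum, while no D15 library of the ligand sum overlapped a library of another day.

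The order of the ligands changed over the course. Sema4c had the highest level per kilobase at D5, 16.6 ± 0.812 CPM per kb (SD, n = 3), and made up 26.4% of the ligand sum, with Sema3b next at 22.6%. At D15 Sema3d had the highest level, 50.1 ± 7.37 CPM per kb (SD, n = 3), and made up 36% of the ligand sum against 7.32% at D5. Sema3f followed at D15 with 17.4%, against 9.39% at D5, and Sema3b made up 1.82%. Among the receptors Nrp1 made up 17.8% of the sum at D15 against 50.4% at D5, and Plxnb2 39.4% at D15 against 14.1% at D5. Plxna4 made up 18.5% at D15 against 2.27% at D5.

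**Figure D2:**
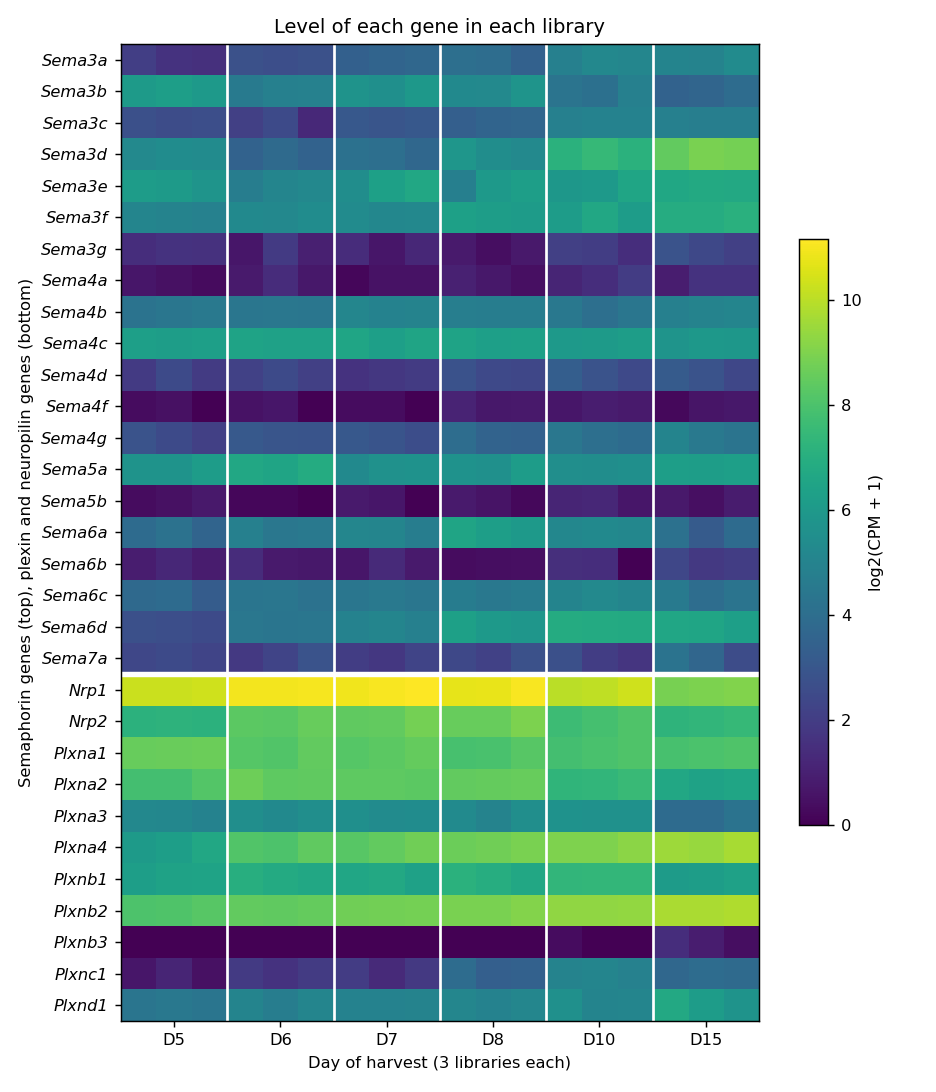
Level of each of the 31 genes (rows) in each of the 18 libraries (columns, 3 a day), as log2(CPM + 1) on the colour scale; semaphorins are above the white line and receptors below it. Nrp1 is the brightest row at D5 to D10, and Plxnb3 is at 0 before D10.

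The secreted class 3 semaphorins held 5 of the 8 ligands that peaked at D15, and their summed level was 95.3 ± 8.69 CPM per kb at D15, against 33.1 ± 2.15 CPM per kb at D5 (SD, n = 3). Sema3d had 37.5, 41.5 and 40.2 CPM at D5, then 10.4, 13.5 and 10.5 at D6, and 16.8, 16.0 and 12.4 at D7. It had 56.8, 43.6 and 36.8 CPM at D8, then 141, 175 and 140 at D10, and 359, 479 and 454 at D15. So it fell once, at D6, and then gained at each later harvest from D8 on, with D15 libraries above those of every other day. Sema3d rose at D15 against D5 by a log2 fold change of 3.44 ± 0.15 (SE), adjusted p = 7.84e-13. Its fall at D6 against D5 was -1.79 ± 0.19 (adjusted p = 1.82e-06). The step at D7 was not called (0.40 ± 0.22, adjusted p = 0.201), and the later steps were 1.61 ± 0.18 at D8, 1.72 ± 0.15 at D10 and 1.5 ± 0.13 at D15, each called (adjusted p = 6.48e-06, 1.26e-07 and 6.19e-08).

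Sema3a, which repels axons and patterns the sympathetic nerves of the mouse heart, had 3.20, 2.1 and 1.91 CPM at D5 and 5.81, 5.36 and 5.86 at D6. It had 9.68, 11 and 12.4 CPM at D7, then 16.0, 15.1 and 10.2 at D8, 27.8, 36.3 and 34.2 at D10, and 32.1, 30.8 and 40.5 at D15. D10 and D15 libraries overlapped each other and lay above those of all earlier days. It rose at D15 against D5 by 3.84 ± 0.21 (log2 ± SE, adjusted p = 4.98e-16), with called steps of 1.24 ± 0.27 at D6, 0.95 ± 0.21 at D7 and 1.24 ± 0.17 at D10 (adjusted p = 4.75e-04, 7.35e-04 and 1.06e-06).

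Sema3c, which is needed for septation of the outflow tract in mice, had 5.53, 5.03 and 5.32 CPM at D5 and 3.36, 4.75 and 1.43 at D6. It had 7.30, 6.63 and 7.44 CPM at D7, then 9.29, 11.1 and 11.7 at D8, 28.1, 29.9 and 30.0 at D10, and 27.9, 26.4 and 26.4 at D15. Its level at D10 lay just above that at D15 without overlap, a difference that was not called (-0.12 ± 0.16, adjusted p = 0.548). It rose at D15 against D5 by 2.34 ± 0.19 (log2 ± SE, adjusted p = 4.40e-12), with rises of 1.15 ± 0.25 at D7, 0.58 ± 0.20 at D8 and 1.46 ± 0.18 at D10 (adjusted p = 5.67e-04, 0.0368 and 1.68e-07). Its fall at D6 was called too (-0.72 ± 0.25, adjusted p = 0.0262), but not without D5 library a or c or D6 library a or c (adjusted p = 0.0694, 0.0566, 0.0527 and 0.222), nor in a fit of D6 and D5 alone (adjusted p = 0.0613).

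Sema3f, a ligand of Nrp2, also rose. It had 32.9, 30.9 and 28.8 CPM at D5, 38.1, 36.3 and 42.5 at D6, and 40.8, 35.3 and 35.8 at D7. It had 80.0, 72.2 and 67.9 CPM at D8, 72.0, 101 and 71.8 at D10, and 120, 120 and 136 at D15. D8 and D10 libraries overlapped, and D15 libraries lay above all others. Sema3f rose at D15 against D5 by 2.02 ± 0.11 (log2 ± SE, adjusted p = 1.06e-15), with called steps of 0.34 ± 0.12 at D6, 0.98 ± 0.11 at D8 and 0.62 ± 0.10 at D15 (adjusted p = 0.0289, 1.61e-07 and 1.24e-05). The step at D6 was not called without D5 library b or c or D6 library a or c (adjusted p = 0.0681, 0.111, 0.0536 and 0.129).

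Sema3b, a secreted semaphorin that binds neuropilins and is studied as a tumour suppressor, went the other way. It had 66.1, 74.8 and 63.7 CPM at D5, then 22.2, 28.5 and 28.8 at D6, and 52.7, 46.1 and 61.5 at D7. It had 38.9, 37.7 and 53.7 CPM at D8, then 18.7, 16.6 and 28.4 at D10, and 10.4, 11.3 and 14.6 at D15. The D6 libraries lay below those of D5 and D7, so the fall was not steady. Sema3b fell at D15 against D5 by 2.49 ± 0.19 on the log2 scale (SE, adjusted p = 2.16e-10), and its called steps were -1.36 ± 0.17 at D6, 1.01 ± 0.17 at D7, -1.04 ± 0.18 at D10 and -0.79 ± 0.21 at D15 (adjusted p = 2.63e-06, 1.38e-04, 1.95e-04 and 0.00434).

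Sema3e, which binds Plxnd1 without a neuropilin, spread widely within D7 and D8. It had 71.9, 66.1 and 54.0 CPM at D5, 25.5, 33.1 and 35.8 at D6, and 43.5, 80.9 and 104 at D7. It had 27.0, 62.1 and 75.8 CPM at D8, then 58.8, 65.1 and 93.6 at D10, and 99.7, 110 and 107 at D15. D15 libraries lay above those of D5 without overlap, but the difference was not called in the fit of all days (0.72 ± 0.34, adjusted p = 0.0687). It was called with DESeq2 (0.75, adjusted p = 0.0478) and in a fit of D15 and D5 alone (0.71, adjusted p = 3.20e-06), and also when D7 library a or D8 library a was left out (adjusted p = 0.0394 and 0.0279). The step at D7 against D6 was called (1.28 ± 0.37, adjusted p = 0.0204), but not when D6 library a or b, or D7 library b or c, was left out (adjusted p = 0.0764, 0.0525, 0.0538 and 0.0927), nor in a fit of D7 and D6 alone (adjusted p = 0.0739).

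Sema3g, a ligand of Nrp2 known from endothelium, was low, with 6.18, 4.43 and 3.36 CPM at D15, against 1.75, 2.1 and 2.05 CPM at D5. It rose at D15 against D5 by 1.23 ± 0.41 (log2 ± SE, adjusted p = 0.00760), a call lost without D15 library a (0.98, adjusted p = 0.0535). At D10 it had 3.38, 3.11 and 1.74 CPM, against 0.726, 0.332 and 0.718 CPM at D8, a called step of 2.19 ± 0.56 (adjusted p = 0.00285). In between it had 0.612, 2.76 and 0.951 CPM at D6 and 1.64, 0.617 and 1.40 at D7, so its libraries spread widely relative to their mean.

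**Figure D3:**
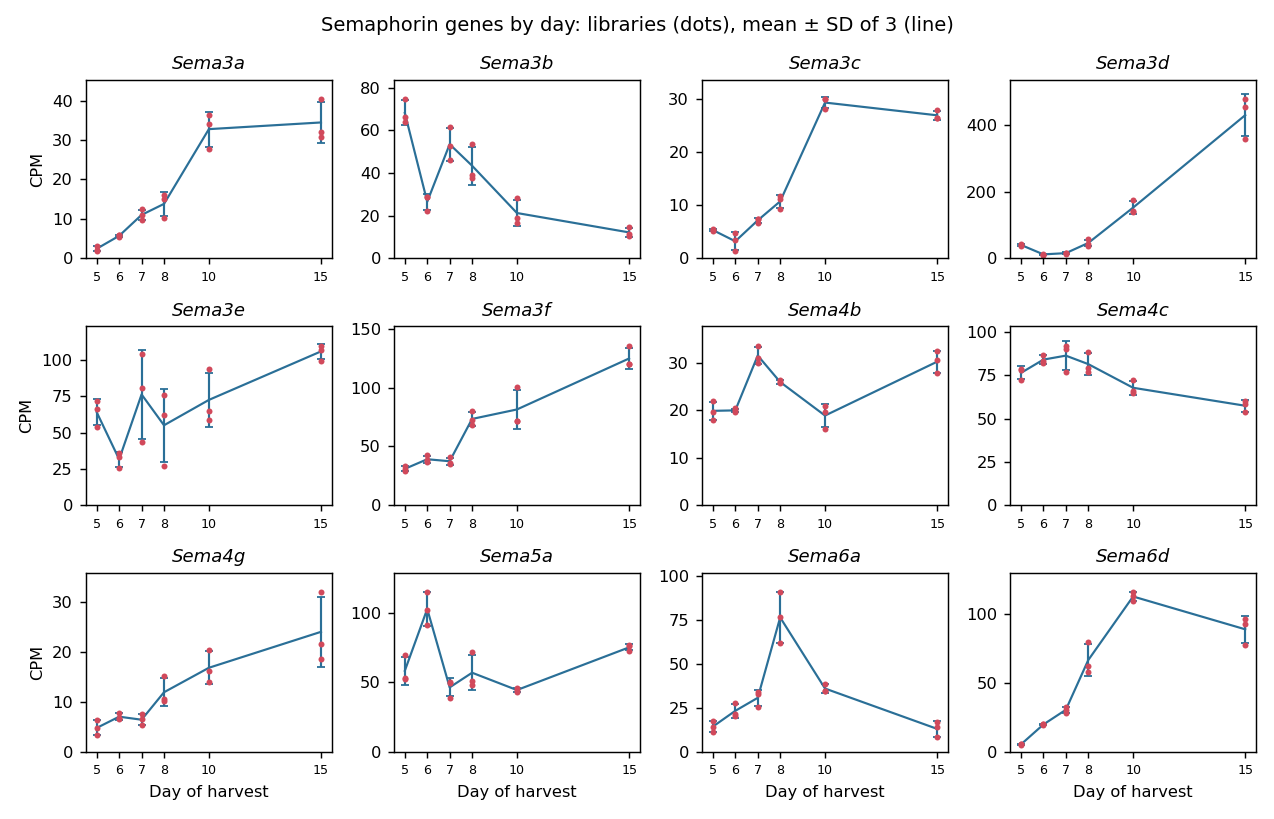
CPM (y axis) of 12 semaphorin genes by day of harvest (x axis), with libraries as dots and the mean ± SD of 3 as a line. Sema3d climbs to 359 to 479 CPM at D15, Sema3b ends at 10.4 to 14.6, Sema5a peaks at D6, Sema6a at D8 and Sema6d at D10.

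The membrane-bound class 4 semaphorins kept a nearly level sum, 21.9 ± 0.451 CPM per kb at D15 and 21.3 ± 0.692 CPM per kb at D5 (SD, n = 3), while single genes moved. Sema4c, a ligand of Plxnb2, had 78.9, 72.1 and 78.3 CPM at D5, 86.9, 82.2 and 83.2 at D6, and 92.2, 76.8 and 90.2 at D7. It had 88.4, 76.7 and 79.4 CPM at D8, 64.9, 66.0 and 72.5 at D10, and 53.7, 60.4 and 58.2 at D15. Its highest mean was at D7, whose libraries overlapped those of D5, D6 and D8, and all D15 libraries lay below all others. It fell at D15 against D5 by 0.41 ± 0.09 on the log2 scale (SE, adjusted p = 7.53e-05). Exons of the gene D430040D24Rik on the opposite strand cover 7.27% of its exon bases, and whether counting used strand was not given in the sources used here.

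Sema4b peaked at D7 with 33.7, 30.1 and 31.0 CPM, against 19.7, 20.4 and 20 CPM at D6 (0.66 ± 0.12 on the log2 scale, adjusted p = 9.74e-05). At D15 it stood at 27.9, 30.7 and 32.5 CPM, against 18, 19.6 and 22.0 CPM at D5 (0.61 ± 0.12, adjusted p = 3.91e-05). In between it fell at D10 to 20.9, 16.1 and 19.7 CPM, against 26.4, 25.9 and 25.7 CPM at D8 (-0.46 ± 0.13, adjusted p = 0.00537), a call lost without D10 library b (-0.36, adjusted p = 0.0522). Its course thus had a high point at D7 and another at D15.

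Sema4g rose to 31.9, 21.6 and 18.6 CPM at D15, against 6.26, 4.75 and 3.27 CPM at D5, a log2 fold change of 2.33 ± 0.24 (SE, adjusted p = 5.09e-10). Sema4a, known from immune cells and the retina, had 0.883, 2.13 and 2.08 CPM at D15, against 0.582, 0.419 and 0.273 CPM at D5, from 30 and 9 counts in all. Its rise was called (1.97 ± 0.62, adjusted p = 0.00426), with Mir7011 in 1.35% of its exon bases, and its highest day mean was 1.95 ± 0.859 CPM at D10 (SD, n = 3). It had 0.765, 1.68 and 0.634 CPM at D6, 0.149, 0.463 and 0.465 at D7, 1.02, 0.664 and 0.359 at D8, and 1.23, 1.73 and 2.90 at D10, overlapping D15. Sema4d, the ligand of Plxnb1, had 8.30, 6.20 and 4.16 CPM at D15, against 2.76, 4.61 and 2.86 CPM at D5, and 9.21, 6.22 and 4.45 CPM at D10. It had 3.52, 4.75 and 3.33 CPM at D6, 2.08, 2.47 and 2.79 at D7, and 5.95, 4.48 and 4.13 at D8. D15 and D5 libraries overlapped, and its call (0.85 ± 0.32, adjusted p = 0.0151) was lost without D15 library a, D5 library a or D5 library c (adjusted p = 0.118, 0.0611 and 0.0588). Sema4f stayed under the filter with 8 counts at D15 and 5 at D5, a ratio of 1.95 with a 95% interval of 0.561 to 7.56, which covers counting error only.

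In class 5, whose members carry thrombospondin repeats, Sema5a peaked early. It had 102, 91.1 and 115 CPM at D6, against 52.4, 53.0 and 69.9 CPM at D5 (0.81 ± 0.13 on the log2 scale, adjusted p = 6.35e-05). At D7 it had 38.9, 49.8 and 50.5 CPM, below all D6 libraries (-1.15 ± 0.14, adjusted p = 2.24e-06). It then had 51.1, 48.3 and 71.7 CPM at D8 and 44.8, 42.8 and 45.8 at D10. At D15 it had 76.1, 72.8 and 77.1 CPM, above all D5 libraries. That difference was called (0.37 ± 0.14, adjusted p = 0.0190), but not without D15 library c, D5 library a or D5 library b (adjusted p = 0.0566, 0.0848 and 0.0844). Sema5b stayed under the filter with 11 counts at D15 and 10 at D5, a ratio of 1.34 with a 95% interval of 0.516 to 3.51.

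The class 6 semaphorins, membrane proteins that bind type A plexins, together had 4.38, 7.98, 10.1, 19.0, 20.8 and 13.9 CPM per kb at D5, D6, D7, D8, D10 and D15, so their sum was highest at D10. Sema6d, a ligand of Plxna1, had 5.68, 5.45 and 4.77 CPM at D5, 20.2, 19.5 and 19.8 at D6, and 30.2, 32.7 and 28.5 at D7. It had 79.7, 62.2 and 58.0 CPM at D8, 116, 113 and 110 at D10, and 96.7, 92.7 and 77.9 at D15. Libraries of neighbouring days never overlapped, and every step was called: 1.90 ± 0.16, 0.62 ± 0.12, 1.13 ± 0.11 and 0.76 ± 0.10 on the log2 scale up to D10, then -0.34 ± 0.10 at D15 against D10 (adjusted p = 1.17e-10, 2.17e-04, 3.72e-09, 5.35e-07 and 0.00369). Sema6d at D15 against D5 rose by 4.07 ± 0.14 (SE, adjusted p = 3.21e-21).

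Sema6a, which can bind Plxna2 and Plxna4, was a gene of the middle of the course. It had 14.1, 17.6 and 11.2 CPM at D5, 28.0, 20.4 and 21.6 at D6, and 34.1, 32.7 and 25.4 at D7. It had 90.8, 76.5 and 62.1 CPM at D8, 34.8, 38.7 and 34.4 at D10, and 16.9, 8.33 and 13.8 at D15. The D8 libraries stood above those of every other day, while D15 and D5 libraries overlapped (-0.13 ± 0.23, adjusted p = 0.615). At D6 against D5 Sema6a rose by 0.71 ± 0.21 (log2 ± SE, adjusted p = 0.0152). That call was lost without D5 library c or D6 library a (adjusted p = 0.0723 and 0.0813). Its later called steps were 1.32 ± 0.18 at D8 against D7, -1.09 ± 0.18 at D10 against D8 and -1.46 ± 0.22 at D15 against D10 (log2 ± SE, adjusted p = 2.41e-05, 1.29e-04 and 1.35e-05).

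Sema6c had 19.1, 20.1 and 17.6 CPM at D6, 19.8, 21.6 and 19.7 at D7, and 24.8, 20.9 and 23.9 at D8. It peaked at D10 with 31.9, 37.1 and 33.1 CPM, and had 22.9, 14.9 and 18.7 CPM at D15, against 13.0, 13.8 and 8.59 CPM at D5 (0.68 ± 0.17 on the log2 scale, adjusted p = 5.21e-04). Sema6b was low, with 4.24, 2.66 and 3.04 CPM at D15, against 0.873, 1.40 and 0.818 CPM at D5 (1.66 ± 0.52, adjusted p = 0.00447). It had 1.68, 0.766 and 0.634 CPM at D6, 0.596, 1.54 and 0.775 at D7, and 0.290, 0.332 and 0.359 at D8. It also rose at D15 against D10, where the D10 libraries had 1.84, 1.73 and 0 CPM (1.40 ± 0.52, adjusted p = 0.0249), a call lost without D10 library c or D15 library a (0.88 and 1.19, adjusted p = 0.125 and 0.0967) and in a fit of D15 and D10 alone (adjusted p = 0.0689).

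Sema7a, the only class 7 gene and a ligand of Plxnc1 and of integrins, was between 2.32 and 6.34 CPM in all libraries of D5 to D10 and differed widely between the D15 libraries. It had 2.60, 3.83 and 6.34 CPM at D6, 3.13, 2.47 and 3.88 at D7, and 4.36, 3.49 and 5.75 at D8. It had 18, 11.7 and 5.12 CPM at D15, against 5.68, 3.11 and 2.32 CPM at D10 and 4.22, 4.75 and 3.82 CPM at D5. D15 and D10 libraries overlapped. It rose by 1.60 ± 0.39 at D15 against D10 and by 1.43 ± 0.37 at D15 against D5 (log2 ± SE, adjusted p = 0.00136 and 0.00124).

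The neuropilins, which hold class 3 semaphorins and forms of VEGF, were the most abundant receptor group up to D10. Their sum per kilobase was 141, 236, 248, 226, 137 and 65.3 CPM per kb at D5, D6, D7, D8, D10 and D15. Nrp1 had 1240, 1230 and 1320 CPM at D5, 1980, 2020 and 2070 at D6, and 1920, 2110 and 2290 at D7. It had 1700, 1780 and 2120 CPM at D8, 1040, 1090 and 1300 at D10, and 473, 500 and 536 at D15. D6, D7 and D8 libraries overlapped and held the highest values, and all D15 libraries lay below all others. Nrp1 rose at D6 against D5 by 0.68 ± 0.08 (log2 ± SE, adjusted p = 8.15e-07), fell at D10 against D8 by 0.71 ± 0.08 (adjusted p = 5.27e-07) and at D15 against D10 by 1.18 ± 0.09 (adjusted p = 4.24e-11). At D15 against D5 it fell by 1.33 ± 0.09 (adjusted p = 8.57e-13). A miRNA gene, Mir1903, lies in 0.818% of its exon bases.

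Nrp2, the receptor of Sema3f, had 145, 147 and 144 CPM at D5, 330, 314 and 377 at D6, and 345, 359 and 455 at D7. It had 373, 379 and 500 CPM at D8, 198, 236 and 272 at D10, and 152, 163 and 177 at D15. It too was high in the middle, and D15 libraries lay just above those of D5. Its rise at D6 was 1.23 ± 0.14 (log2 ± SE, adjusted p = 6.94e-06) and its changes at D10 and D15 were -0.83 ± 0.14 and -0.52 ± 0.14 (adjusted p = 3.18e-04 and 0.00678). The difference at D15 against D5 was not called (0.18 ± 0.14, adjusted p = 0.261), though it was in a fit of those days alone (0.16, adjusted p = 0.0390).

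The type A plexins, the signalling partners of neuropilins, moved apart. Plxna4 had 66.8, 76.0 and 104 CPM at D5, 279, 261 and 341 at D6, and 302, 361 and 433 at D7. It had 400, 423 and 485 CPM at D8, 507, 518 and 595 at D10, and 743, 693 and 829 at D15. D15 libraries lay above those of all other days. Its largest step was at D6 against D5 (1.83 ± 0.18 on the log2 scale, adjusted p = 2.71e-06), and at D15 against D5 it rose by 3.19 ± 0.18 (adjusted p = 9.26e-10). The antisense gene Plxna4os3 overlaps 0.78% of its exon bases.

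Plxna2 had 229, 223 and 288 CPM at D5, 419, 336 and 350 at D6, and 336, 334 and 321 at D7. It had 357, 368 and 382 CPM at D8, 156, 162 and 190 at D10, and 104, 84.5 and 93.5 at D15. All D10 and D15 libraries lay below those of D5 to D8. The step at D10 against D8 was -1.13 ± 0.10 (log2 ± SE, adjusted p = 1.47e-08), and at D15 against D5 Plxna2 fell by 1.39 ± 0.10 (adjusted p = 6.14e-11).

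Plxna3 stayed between 29.7 and 50.4 CPM at D5 to D10, with its highest mean, 49.4 ± 1.00 CPM (SD, n = 3), at D10. It had 45.3, 38.0 and 45.3 CPM at D6, 46.2, 41.2 and 42.6 at D7, and 39.5, 30.5 and 44.5 at D8. At D15 it dropped to 14.1, 13.8 and 17.8 CPM, against 50.4, 49.4 and 48.4 CPM at D10 (-1.69 ± 0.13 on the log2 scale, adjusted p = 1.40e-11) and 36.5, 34.9 and 29.7 CPM at D5 (-1.14 ± 0.14, adjusted p = 1.22e-08). Plxna1 had 293, 280 and 351 CPM at D6, 295, 329 and 363 at D7, 238, 248 and 304 at D8, and 227, 250 and 270 at D10. It had 243, 256 and 274 CPM at D15, against 373, 386 and 403 CPM at D5, a fall of 0.59 ± 0.10 on the log2 scale (SE, adjusted p = 1.14e-05). Exons of Gm26811 on the opposite strand cover 10.7% of the exon bases of Plxna1, so its counts may hold reads of that gene.

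Among the type B plexins, which bind class 4 semaphorins and act through exchange factors of small GTPases, Plxnb2 rose at every harvest. It had 265, 272 and 302 CPM at D5, 361, 342 and 366 at D6, and 426, 441 and 457 at D7. It had 480, 481 and 547 CPM at D8, 631, 638 and 655 at D10, and 863, 853 and 919 at D15. Libraries of neighbouring days never overlapped. The steps were 0.35, 0.31, 0.19, 0.35 and 0.45 on the log2 scale, each ± 0.06 (SE) and each called, although the step at D8 against D7 (adjusted p = 0.0290) was not called without D7 library a, D7 library b or D8 library c (adjusted p = 0.0894, 0.0755 and 0.205), nor in a fit of D8 and D7 alone (adjusted p = 0.0590). At D15 against D5 Plxnb2 rose by 1.65 ± 0.06 (adjusted p = 1.24e-19).

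Plxnb1 had 126, 111 and 104 CPM at D6, 96.0, 105 and 83.9 at D7, and 137, 122 and 102 at D8. It peaked at D10 with 161, 167 and 166 CPM, above all other libraries, and had 68.3, 74.1 and 83.4 CPM at D15. Its fall at D15 against D10 was 1.13 ± 0.10 on the log2 scale (SE, adjusted p = 6.98e-10). D15 libraries overlapped those of D5, which had 75.7, 85.4 and 88.4 CPM (-0.14 ± 0.10, adjusted p = 0.206). Gm7628 on the opposite strand overlaps 2.68% of its exon bases. Plxnb3 was under the filter, with 17 counts at D15 and 0 at D5, which is at least 6.89-fold higher with 3 counts over the D5 group as the floor. Its 17 counts came as 1.77, 0.886 and 0.320 CPM in the D15 libraries, and the days D5 to D8 held 0 counts.

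Plxnc1, the receptor of Sema7a, was almost off at D5, with 0.582, 1.26 and 0.409 CPM from 16 counts in all. It had 2.75, 2.14 and 2.85 CPM at D6, 2.98, 1.54 and 2.64 at D7, and 14.5, 9.29 and 10.1 at D8. It then had 31.0, 33.0 and 28.6 CPM at D10 and 12.4, 14.5 and 13.3 at D15. D10 libraries stood above all others. Gm48718 on the same strand overlaps 1.38% of its exon bases. The steps were 1.76 ± 0.40 at D6, 2.24 ± 0.26 at D8, 1.44 ± 0.19 at D10 and -1.21 ± 0.19 at D15 (log2 ± SE, adjusted p = 9.16e-04, 1.04e-07, 7.04e-07 and 3.79e-06). At D15 against D5 it rose by 4.12 ± 0.31 (adjusted p = 4.94e-13).

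Plxnd1, the endothelial receptor of Sema3e, had 19.2, 21.0 and 19.2 CPM at D5, 32.0, 25.6 and 32.8 at D6, and 29.9, 29.8 and 31.2 at D7. It had 33.4, 29.5 and 34.1 CPM at D8, 48.2, 32.1 and 33.3 at D10, and 107, 72.0 and 51.5 at D15. The D15 libraries lay above all others but spread widely. Plxnd1 rose at D15 against D10 by 1.01 ± 0.21 (log2 ± SE, adjusted p = 8.10e-04), a call lost in a fit of D15 and D10 alone (0.99, adjusted p = 0.0649), and at D15 against D5 by 1.95 ± 0.22 (adjusted p = 6.19e-07). The summed CPM of 10 endothelial markers (such as Pecam1 and Cdh5) was 599, 515 and 409 in the same 3 D15 libraries, against 350, 313 and 350 at D10 and 151, 155 and 179 at D5. That sum was 438 to 517 at D6, 430 to 588 at D7 and 375 to 509 at D8, days on which Plxnd1 had 25.6 to 34.1 CPM. The part of that list in the change of Plxnd1 was not tested. In bulk RNA, fewer cells of a type and less RNA per cell cannot be told apart, here or in any result above.

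**Figure D4:**
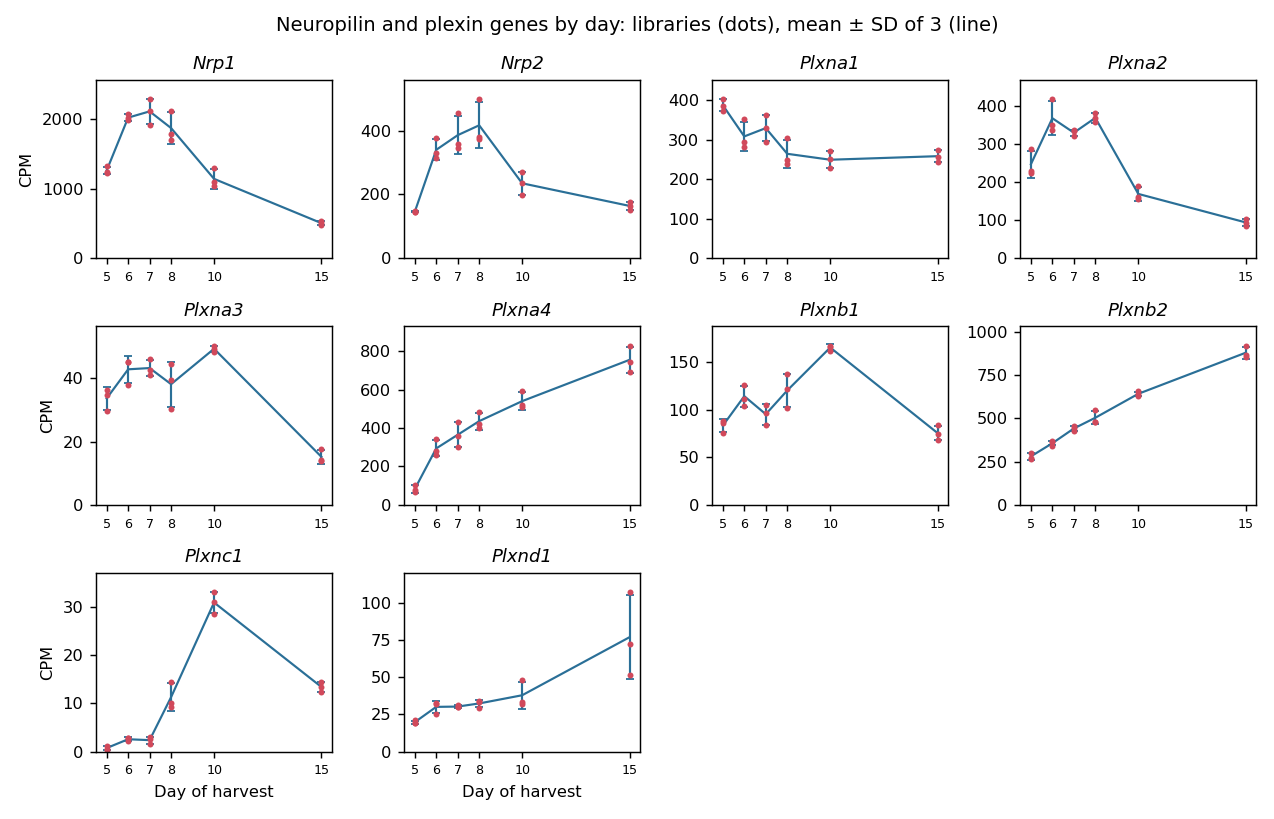
CPM (y axis) of the 10 receptor genes tested by day of harvest (x axis), with libraries as dots and the mean ± SD of 3 as a line. Nrp1, Nrp2 and Plxna2 are highest between D6 and D8, Plxna3, Plxnb1 and Plxnc1 at D10, and Plxna4, Plxnb2 and Plxnd1 at D15.

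Between the stages, D8, D10 and D15 (immature cardiomyocytes) against D5, D6 and D7 (cardiac progenitor cells), 23 of the 28 genes were called, where 77.1% of all genes were. Of the ligands 11 were higher and 3 lower, and of the receptors 5 were higher and 4 lower, where 39.3% of all genes were higher and 37.8% lower. Plxnc1 (3.31 ± 0.15 on the log2 scale), Sema3d (2.92 ± 0.10) and Sema6d (2.57 ± 0.07) had the largest rises. The lower ligands were Sema3b (-1.04 ± 0.11), Sema4c (-0.27 ± 0.05) and Sema5a (-0.18 ± 0.08). The last of these was near the threshold (adjusted p = 0.0430) and was not called with RLE factors, upper quartile factors, DESeq2 or no filter (adjusted p = 0.0790, 0.0521, 0.0681 and 0.0676). Nor was it called when any D10 or D15 library, D5 library c, D6 library a or c, D7 library b or c, or D8 library a or b was left out (adjusted p = 0.0546 to 0.0988). Sema3e was not called (0.48 ± 0.21, adjusted p = 0.0502), but was with RLE factors, upper quartile factors and DESeq2 (adjusted p = 0.0431, 0.0454 and 0.0212), and without D7 library c, D8 library a or D10 library a (adjusted p = 0.0223, 0.00718 and 0.0461).

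Step by step, 8 of the 10 receptors were called both at D6 against D5 and at D15 against D10. Of these, 6 rose at D6 and fell at D15 (Nrp1, Nrp2, Plxna2, Plxna3, Plxnb1 and Plxnc1), while Plxna4 and Plxnb2 rose at both. The share of all genes called at both steps, or changing direction between them, was not counted, so this pattern cannot be called particular to the receptors. The D15 call of Plxna4 was lost without D10 library a or b or D15 library c (adjusted p = 0.0747, 0.0695 and 0.0826). The D6 call of Plxna3 was lost without D5 library c or D6 library a or c (adjusted p = 0.141, 0.0966 and 0.0910). Plxna1 fell at D6 and was not called at D15, and its D6 call was lost without D6 library a or b (adjusted p = 0.0515 and 0.0607). Plxnd1 was called at D15 but not at D6 (adjusted p = 0.0580), though its D6 and D5 libraries did not overlap. Its D6 rise was called with DESeq2 and in a fit of D6 and D5 alone (adjusted p = 0.0117 and 3.82e-04). It was also called without D10 library a or D15 library a or c (adjusted p = 0.0301, 0.00222 and 0.00447). The D15 call of Plxnd1 was lost in a fit of D15 and D10 alone (adjusted p = 0.0649). At D6 against D5, 8 receptors rose and 1 fell, and 6 ligands rose and 3 fell, so 18 of the 28 genes were called, where 34.6% of all genes were (18.2% higher and 16.4% lower). At D7 against D6, 1 receptor rose and 1 fell, and 6 ligands rose and 1 fell, where 30.4% of all genes were called (15.1% higher and 15.3% lower). The receptor that fell was Plxnb1 (adjusted p = 0.0488). Its call was lost with DESeq2 and with upper quartile factors (adjusted p = 0.0559 and 0.0595). It was also lost when any of several libraries was left out, such as D6 library a (adjusted p = 0.239). At D8 against D7, the passage between the labelled stages, 3 receptors rose and 1 fell while 7 ligands rose and 0 fell, where 24.2% of all genes were called (12.6% higher and 11.6% lower). The ligands that rose there were Sema3c, Sema3d, Sema3f, Sema4d, Sema4g, Sema6a and Sema6d. Of these calls, that of Sema3c was lost without D7 library a, b or c or D8 library b or c (adjusted p = 0.0653 to 0.113), that of Sema4d without D7 library a or b or D8 library a (adjusted p = 0.0755 to 0.154) and that of Sema4g without D8 library a (adjusted p = 0.0711). Among the receptors at D8 against D7, the call of Plxna1 was lost without D7 library b or c or D8 library a or b (adjusted p = 0.0509 to 0.11). That of Plxnb1 was lost without D7 library c or D8 library a (adjusted p = 0.0869 and 0.115). The total of 11 genes called at that step became 7 without D7 library b or without D8 library a.

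At D10 against D8, 4 receptors rose and 3 fell, and 6 ligands rose and 4 fell, where 31.2% of all genes were called (17.3% higher and 13.9% lower). At D15 against D10, 3 receptors rose and 6 fell, and 7 ligands rose and 5 fell, where 50.8% of all genes were called (26.4% higher and 24.4% lower). The median log2 fold change of the receptors was 0.59 at D6 against D5 and -0.69 at D15 against D10, against medians over all genes of 0.01 and -0.01. By day of the highest mean, 2 of the 28 genes peaked at D5, 1 at D6, 3 at D7, 3 at D8, 8 at D10 and 11 at D15. Over all genes tested the shares were 25.6%, 12.9%, 9.28%, 7.28%, 11.1% and 33.8%.

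Known ligand and receptor pairs can be set side by side. Sema3e had 106 ± 5.30 CPM at D15, against 64.0 ± 9.13 CPM at D5 (SD, n = 3), and was not called. Its receptor Plxnd1 had 76.9 ± 28.2 CPM at D15, against 19.8 ± 1.01 CPM at D5, and rose. Sema3f rose while its receptor Nrp2 was not called. Sema3a rose while Nrp1, its neuropilin, fell. Sema7a and Plxnc1 rose at different times, with Plxnc1 highest at D10 (30.9 ± 2.18 CPM) and Sema7a at D15 (11.6 ± 6.44 CPM). Plxnb1 was highest at D10 (165 ± 3.57 CPM). Its ligand Sema4d had its highest mean there too (6.62 ± 2.41 CPM), but D10 and D15 libraries of Sema4d overlapped and their difference was not called (-0.12 ± 0.30 at D15 against D10, adjusted p = 0.769).

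Of 40 genes listed for acting beside or under these receptors, 37 were tested for D15 against D5. Of those, 24 rose, 7 fell and 6 were not called, where 40.3% of all genes rose and 37.7% fell, and their median log2 fold change was 0.48, against 0.03 over all genes. The rises with the smallest p were the receptor kinase Mst1r, known to pair with type B plexins, the related kinase Met, and Arhgef12, an exchange factor of small GTPases bound by type B plexins. Mst1r had 106 ± 9.46 CPM at D15 and 0.798 ± 0.429 CPM at D5 (SD, n = 3, log2 change 7.02 ± 0.23, adjusted p = 3.24e-21). Met had 151 ± 16.5 CPM at D15 and 3.66 ± 0.998 CPM at D5 (5.36 ± 0.18, adjusted p = 1.22e-20). Arhgef12 had 284 ± 14.3 CPM at D15 and 96.8 ± 2.95 CPM at D5 (1.55 ± 0.08, adjusted p = 4.82e-16). Exons of Gm5831 on the opposite strand cover 8.88% of the exon bases of Arhgef12.

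The falls with the smallest p were of genes best known from neurons. Crmp1 had 3.90 ± 0.976 CPM at D15 and 30.1 ± 2.77 CPM at D5 (SD, n = 3, log2 change -2.95 ± 0.17, adjusted p = 1.00e-15). Dpysl5, of the same family of collapsin response mediators, had 42.0 ± 2.57 CPM at D15 and 112 ± 3.89 CPM at D5 (-1.41 ± 0.12, adjusted p = 1.30e-11). L1cam, an adhesion molecule that joins Nrp1 in the Sema3a receptor, had 1 count at D15 and 537 at D5, a ratio of 0.00227 with a 95% counting interval of 5.73e-05 to 0.0127 (adjusted p = 6.80e-15), and 1.36% of its exon bases overlap Arhgap4. Dpysl4 (-3.08 ± 0.69) and Dpysl2 (-0.66 ± 0.07), of the family of Crmp1, and Nrcam (-3.46 ± 0.97), related to L1cam, fell as well (adjusted p = 1.73e-04, 2.25e-09 and 0.00113), while Dpysl3 rose (1.74 ± 0.13, adjusted p = 8.89e-13). Nrcam had only 2 counts at D15 and 31 at D5, a ratio of 0.0785 with a 95% counting interval of 0.0091 to 0.308. Of the oxidases of actin filaments, Mical2 (5.12 ± 0.25) and Mical3 (1.54 ± 0.17) rose and Mical1 fell (-0.66 ± 0.07). Both neuron and neural crest markers with enough counts for the test were lower at D15, among them Tubb3, with 1.04 ± 0.661 CPM at D15 and 8.87 ± 2.39 CPM at D5 (-3.08 ± 0.39, adjusted p = 2.38e-08), and Sox10, Sox2 and Foxd3 had no count at D15. Their part in these falls was not tested.

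Cell type markers also changed between the days. The sum of 8 cardiomyocyte markers (such as Tnnt2 and Myh6) was 4110 to 6880 CPM at D15 and 271 to 322 CPM at D5, with 8 of 8 called higher, the direction that the labels name. The sum of 8 fibroblast and mesenchyme markers was 38300 to 47400 CPM at D15 and 488 to 527 CPM at D5 (8 of 8 higher), and that of 6 epicardial markers was 2090 to 2200 and 111 to 122 CPM (6 of 6 higher). The endothelial sum was 409 to 599 CPM at D15 and 151 to 179 CPM at D5 (9 of 10 higher). A list of 6 blood and macrophage markers summed to 18 to 19.7 and 3.41 to 4.19 CPM, with Ptprc, Hbb-bh1, Gata1 and Fcgr1 at 0 at D15. Of its 3 genes tested only 1 was called higher, Csf1r, with means of 15.6 CPM at D15 and 0.0454 CPM at D5. Cd68 was not called (adjusted p = 0.889). The part of these lists in the changes between days was not tested.

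Libraries of the same day also differed in the cardiomyocyte sum, for example 562 to 1310 CPM at D7 and 998 to 2320 CPM at D8. This allows the members to be set against it with the day held fixed, a description made after the values were seen. Of the 28 genes, 6 had exactly the reverse order of the cardiomyocyte sum over the 3 libraries in at least 4 of the 6 days, which is 21.4%, against 3.31% of all 13116 genes. Since that sum was highest in library a and lowest in library c on all 6 days, these genes were lowest in library a and highest in library c on those days. They were Nrp1 and Plxna1 in 5 days each, and Nrp2, Plxna4, Plxnb2 and Sema3e in 4 days each. The same order in at least 4 days was found for Sema4g, in 6 of 6 days, and Sema6d, in 4 days, which is 7.14%, against 3.69% of all genes. For Sema3e at D8 the values were 27.0, 62.1 and 75.8 CPM in libraries whose cardiomyocyte sums were 2320, 1860 and 998 CPM. For Nrp2 at D8 they were 373, 379 and 500 CPM in the same libraries. The fibroblast and mesenchyme sum was 16800, 15900 and 23000 CPM there. Whether libraries of different days share a culture is not given in the labels, so the days are not independent of each other in this count.

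**Figure D5:**
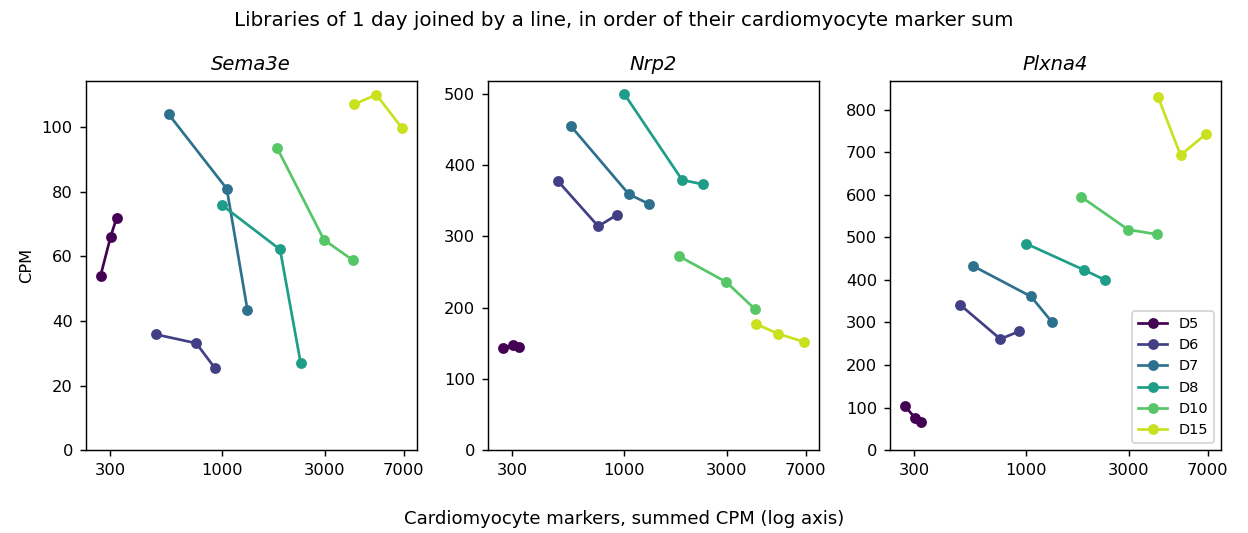
CPM of Sema3e, Nrp2 and Plxna4 (y axes) against the summed CPM of 8 cardiomyocyte markers (x axis, log scale), each point a library and each line joining the 3 libraries of a day. Lines slope down within D7, D8 and D10 in all 3 panels, and the Sema3e line of D5 slopes up.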

How the data were processed

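The input was the raw counts per gene that the authors deposited. The labels' protocols name a TruSeq RNA v2 kit and single-end reads of 50 bases, called stranded there. Per the submitters' processing notes reads were aligned with STAR to mm10. Not given in the sources used here are versions, counting tool, annotation and strand setting. The table held 23337 symbols, and 18 columns were matched to days by name. They carry no replicate number. A further 3 columns that match no sample here were not used. No 2 libraries of a day agreed within sampling noise (genes of 20 counts or more, chi-square over degrees of freedom 2.206 to 9.232).

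Counts were tested with edgeR 4.0.16 (R 4.3.3): filterByExpr (minimum count 10) kept 13116 genes, with TMM factors, a mean per day, robust quasi-likelihood F tests with 12 residual degrees of freedom, and Benjamini-Hochberg adjustment over all genes tested. The common biological coefficient of variation was 8.27%. Comparisons were across days, D15 against D5, the stages, and 5 steps between neighbouring harvests. Values in every library were given for up to 4 of the largest called rises and falls among ligands and receptors apart (only 2 ligands fell), for called steps of at least 2-fold, and for genes that peak at D6 to D10; of the partner list, the 3 smallest p in each direction. Further steps and genes were chosen after their values were seen. The members and lists were chosen with earlier results of these data known. Exon lengths, overlaps and coordinates are from GENCODE M21 (GRCm38), where 92.9% to 100% of the 50-base stretches of each gene's transcripts were unique to it. Start-site windows are from RefSeq GRCm38.p6. Fold bounds used 3 counts over a group as the floor. The alternatives tried were DESeq2 1.42.0, RLE factors, upper quartile factors, all genes unfiltered, 1 CPM in 3 libraries as the filter, the compared days alone, and each library left out. The fits were tested on simulated data. Software for the tables was Python 3.11.15 with pandas 2.3.3 and scipy 1.17.1, and for the plots matplotlib 3.10.9. The summed level of the neuron and neural crest markers is not reported here.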

Additional observations from a re-analysis of the deposited data

How the results depend on the processing

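Leaving out each library in turn gave 28 to 28 genes called across days, 22 to 25 for D15 against D5, 21 to 23 between the stages, 13 to 19 at D6, 7 to 9 at D7, 7 to 11 at D8, 15 to 18 at D10 and 18 to 21 at D15 against the day before. Of these counts only that of D8 against D7 moved by more than 1.5 times, to 7 without D7 library b or D8 library a. Under the other alternatives each count stayed within 1.5 times. Of the fold changes for D15 against D5, that of Sema6a, which was not called, ran from -0.36 to 0.10 when libraries were left out, changing sign to 0.10 without D15 library b and to 0.04 without D5 library b. Of the recomputed fold changes for D15 against D5, 609 kept direction and side of the threshold, 7 lost the call (Sema3g, Sema4d and Sema5a) and 5 gained it (Sema3e and Nrp2). For the steps, single genes lost a call in 74 recomputed values and gained one in 25, and for the stages in 23 (Sema5a and Sema7a) and 7 (Sema3e and Sema3g). The cause was not tested. A fit of only the compared days was not run for the stages, which use all days. No paired analysis was possible because the table's columns carry no replicate numbers. Genes under about 1 CPM, such as Sema4f, Sema5b and Plxnb3, rest on 0 to 19 counts a day. In the fit of all genes unfiltered, Plxnb3 was called for D15 against D5 (adjusted p = 0.00106) and D15 against D10 (adjusted p = 0.0410), and Sema4f and Sema5b only between the stages (adjusted p = 0.0340 and 0.0430).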

Other observations

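Of the class 3 genes, 4 lie in a row on chromosome 5 in the order Sema3d, Sema3a, Sema3e and Sema3c (GENCODE M21, GRCm38), from chr5:12383385-12588948 for Sema3d to chr5:17574281-17730268 for Sema3c, with gaps of 536, 423 and 3320 kb. Their log2 changes at D15 against D5 were 3.44 ± 0.15, 3.84 ± 0.21, 0.72 ± 0.34 and 2.34 ± 0.19 (SE), and that of Sema3e was not called. At D6 against D5, Sema3a rose (1.24 ± 0.27) while Sema3d fell (-1.79 ± 0.19). Sema3c fell there too (-0.72 ± 0.25), a call lost in several of the refits given above. Sema3e was lower at D6 without overlap of libraries but was not called (-1.02 ± 0.37, adjusted p = 0.051). It was called there with DESeq2 and in a fit of D6 and D5 alone (adjusted p = 0.0178 and 1.18e-06). Sema3b and Sema3f lie 72.3 kb apart on chromosome 9, both on the minus strand, at chr9:107597674-107609229 and chr9:107681500-107710475. There Sema3b fell by 2.49 ± 0.19 on the log2 scale and Sema3f rose by 2.02 ± 0.11 at D15 against D5.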
